A study of Mus musculus with 6 samples.

Results

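The SPARC family is a small group of secreted, mostly matricellular proteins, which sit in the extracellular matrix and modify how cells meet matrix and growth factors rather than build the scaffold. Its 8 genes examined here were Smoc1, Smoc2, Sparc, Sparcl1, Spock1, Spock2, Spock3 and Fstl1, out of 19938 genes measured. The probe set of each gene was chosen by the highest mean level over all 6 arrays, among probe sets annotated to exactly 1 gene symbol; as each of the 8 symbols had 1 such probe set, that step discarded nothing. The family itself was picked with earlier results of these arrays known, so the changes of its members are a description of these data and no independent evidence.

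RNA came from dissected mandibular arches, the lower-jaw part of the first pharyngeal arch, of C57BL/6 mouse embryos at E9.5. Tbx1-/- embryos (Tbx1 null, 3 arrays) were set against Tbx1+/+ embryos (wild type, 3 arrays) on Affymetrix Mouse Gene ST 1.0 arrays. The product of Tbx1 is a transcription factor of the T-box class active in the pharyngeal region, and the comparison addresses which arch transcripts depend on it. The labels give the genotype and do not describe how the allele was made. Arches of 3 embryos per genotype were pooled for RNA, and the series text leaves unsaid whether each array had a pool of its own; the p-values therefore measure the spread between these arrays, part of which may be technical.

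Levels are on the log2 scale, 1 value per probe set and array, with array medians from 7.98 to 8.04. The medians were 8.020, 8.039 and 8.019 on Tbx1 null replicates 1, 2 and 3. On wild type replicates 1, 2 and 3 they were 8.010, 8.007 and 7.981, so a small offset ran with genotype. The level of one probe set cannot be set against that of another, so each gene is compared only with itself. The mean log2 level of 3 Y-linked transcripts spanned 5.73 to 9.58 among the Tbx1 null arrays and 8.57 to 9.85 among the wild-type arrays, with Tbx1 null replicate 3 the low one, so the mix of embryos was not identical on all arrays. The 10 markers of arch mesenchyme averaged 11.69 to 11.75 on the Tbx1 null arrays and 11.54 to 11.63 on the wild-type arrays. Tbx1 fell to 9.48, 9.39 and 9.63 on Tbx1 null replicates 1, 2 and 3, against 11.64, 11.36 and 11.31 on wild type replicates 1, 2 and 3 (log2 change -1.94, limma adjusted p = 0.000684).

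Family members share a follistatin-like domain and an extracellular module of the EF-hand type, which in SPARC binds calcium and collagen. SPARC (osteonectin, BM-40) is a collagen-binding protein of mesenchyme and basement membranes. SMOC proteins are the modular basement-membrane relatives, and Smoc1 is known from Xenopus as an antagonist of bone morphogenetic protein (BMP) signalling, the pathway that patterns the distal arch; human SMOC1 mutations disturb eye and limb development. The SPOCK genes encode testicans, proteoglycans that act on extracellular proteases.

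Genomic sequence was shown for a pair of members to give the reader the DNA at their starts, since the altered factor is a T-box protein. RefSeq promoter windows of build GRCm38.p6, from 250 bases before to 50 after a transcript start, were given for 5 of the 8 members (Sparc, Spock1, Spock2, Spock3 and Fstl1, 6 windows); Smoc1, Smoc2 and Sparcl1 were not among them. Spock2 is printed as the one of these whose arrays lay lower in Tbx1 null with no overlap, and Sparc as the founding member. The windows lie at chr10:60106007-60106306 on the plus strand (Spock2) and chr11:55420031-55420330 on the minus strand (Sparc). Capitals mark the core GGTGT of the T-box half-site, on either strand.
Spock2: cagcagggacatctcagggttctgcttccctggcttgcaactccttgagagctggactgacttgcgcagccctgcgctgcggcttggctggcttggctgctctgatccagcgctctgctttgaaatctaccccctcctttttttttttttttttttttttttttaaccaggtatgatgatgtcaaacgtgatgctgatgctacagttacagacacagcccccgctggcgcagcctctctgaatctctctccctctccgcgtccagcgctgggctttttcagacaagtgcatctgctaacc
Sparc: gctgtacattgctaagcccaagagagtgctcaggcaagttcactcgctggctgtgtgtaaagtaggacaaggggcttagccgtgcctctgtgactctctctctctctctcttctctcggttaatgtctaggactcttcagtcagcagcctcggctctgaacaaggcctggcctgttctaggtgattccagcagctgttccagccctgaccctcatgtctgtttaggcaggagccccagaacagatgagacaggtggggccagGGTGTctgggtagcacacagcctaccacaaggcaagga

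The half-site GGTGTGA, searched on both strands, was in 0 of the 6 member windows and in 3.98% of all 32851 windows of the table. Its shorter form GGTGTG, which every longer match contains, was likewise in 0 of 6 and in 19.0% of all windows. The core GGTGT was in 3 of 6 member windows (Sparc, Spock1 and Fstl1) and in 41.6% of all. A match describes letters and is no binding site, and a window without one says nothing about the factor.

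None of the 8 genes passed an adjusted p of 0.05 in the fit across all genes (limma, Benjamini-Hochberg), where 0.16% of all genes did. At an unadjusted p under 0.05, 3 members were lower (Smoc1, Smoc2 and Spock2) and 1 was higher (Spock3); over all genes the shares were 3.94% lower and 5.5% higher. These same 4 genes were the ones whose arrays did not overlap between the genotypes. Over all genes, 7.06% had every Tbx1 null array below every wild-type array and 8.36% had every one above. The median log2 change of the 8 members was 0.03, beside -0.01 for all genes, so the family had no common direction: 5 members lay above 0 and 3 below.

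**Figure D1:**
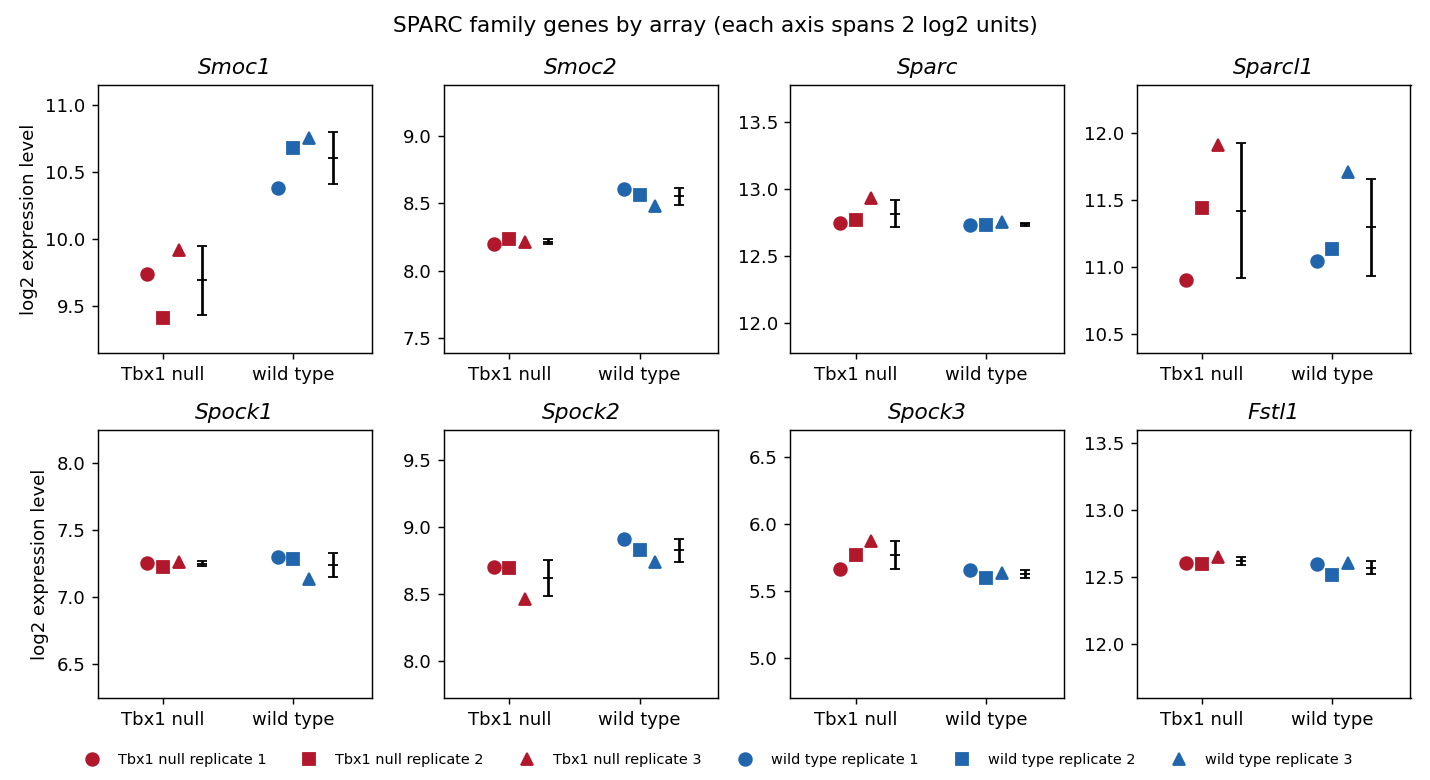
Log2 expression level of the 8 SPARC family genes on each array, Tbx1 null (red) at the left and wild type (blue) at the right of every panel, with the mean and SD of 3 arrays in black; each vertical axis spans 2 log2 units. Smoc1 shows the widest gap between genotypes, with Tbx1 null arrays from 9.41 to 9.92 and wild-type arrays from 10.38 to 10.75, while Sparcl1 shows wide spread within both genotypes.

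Smoc1 (probe set 10396936, Entrez gene 64075) had log2 levels of 9.74, 9.41 and 9.92 on Tbx1 null replicates 1, 2 and 3, against 10.38, 10.68 and 10.75 on wild type replicates 1, 2 and 3. Every Tbx1 null array was below every wild-type array, and replicate 2 was the lowest. The means were 9.69 ± 0.26 in Tbx1 null and 10.60 ± 0.20 in wild type (SD, n = 3 each), a log2 change of -0.91 (SE 0.14, 95% interval -1.24 to -0.59) or a 1.88-fold lower level. The limma adjusted p was 0.0675, just short of the threshold, at rank 65 of all genes by p. This was the largest difference among the 8 members. In pooled tissue, fewer cells that make a transcript and less of it per cell cannot be told apart.

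Smoc2, the close relative of Smoc1 that is also a basement-membrane protein and in dogs and humans bears on skull and tooth form, differed in the same direction by less. Its levels were 8.20, 8.23 and 8.21 on Tbx1 null replicates 1, 2 and 3 and 8.61, 8.57 and 8.48 on wild type replicates 1, 2 and 3. The Tbx1 null arrays lay within 0.034 of each other, and all were below the wild-type arrays. The change was -0.34 (SE 0.05, 95% interval -0.45 to -0.23), a 1.26-fold lower level, with a limma adjusted p of 0.0579.

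Some settings called Smoc1 or Smoc2, and most did not. Centring each array on its median called both (limma adjusted p = 0.0484 for Smoc1 and 0.0322 for Smoc2), as did array weights (0.00811 and 0.00724). With another round of quantile normalisation only Smoc2 passed (0.0432, against 0.0562 for Smoc1), and with a trended, robust variance model only Smoc1 (0.0405, against 0.0547 for Smoc2). Other settings moved them away from the threshold. The adjusted p was 0.177 for Smoc1 and 0.141 for Smoc2 when every probe set was tested, and 0.0972 and 0.116 with a replicate block. With 1 array left out it reached 0.257 for Smoc1 (without wild type replicate 2) and 0.253 for Smoc2 (without Tbx1 null replicate 2). Over all alternatives the change stayed between -1.03 and -0.77 for Smoc1 and between -0.38 and -0.31 for Smoc2. Some settings, such as the replicate block and the trended, robust variance model, cannot alter the change itself. As the arrays of both genes did not overlap, leaving 1 out could not turn the sign.

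**Figure D2:**
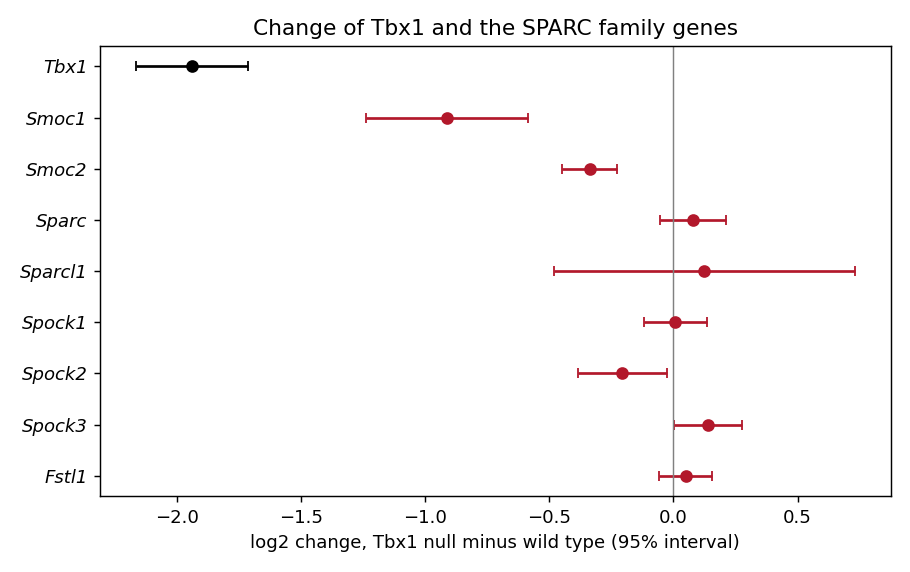
Log2 change, Tbx1 null minus wild type, of Tbx1 (black) and the 8 SPARC family genes (red), with 95% intervals from the limma fit on 6 arrays. The intervals of Smoc1 (-1.24 to -0.59), Smoc2 and Spock2 lie below 0 and that of Spock3 just above it, while the interval of Sparcl1 is the widest of the family.

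Sparc, the namesake, was nearly level between genotypes. It stood at 12.75, 12.77 and 12.93 on Tbx1 null replicates 1, 2 and 3 and at 12.73, 12.73 and 12.75 on wild type replicates 1, 2 and 3. Tbx1 null replicate 3 was the high one, and without it the change was 0.02 in place of 0.08 (95% interval with all arrays -0.06 to 0.21, limma adjusted p = 0.746). At such bright levels array signals can be compressed.

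Fstl1, a secreted follistatin-like glycoprotein that restrains BMP signalling in the developing lung of mice, read 12.61, 12.60 and 12.65 on Tbx1 null replicates 1, 2 and 3 and 12.60, 12.51 and 12.60 on wild type replicates 1, 2 and 3. The arrays overlapped, and the change was 0.05 (95% interval -0.06 to 0.15, limma adjusted p = 0.811), or 0.02 without wild type replicate 2. The intervals of Sparc and Fstl1 both leave out a change of the size measured for Smoc2, in either direction.

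Sparcl1 (hevin), best known from vessels and from astrocytes, where it promotes synapse formation, varied more between arrays of a genotype than between genotypes. Its levels were 10.90, 11.44 and 11.91 on Tbx1 null replicates 1, 2 and 3 and 11.04, 11.14 and 11.71 on wild type replicates 1, 2 and 3. The arrays spanned 1.01 within Tbx1 null and 0.67 within wild type, with SDs of 0.50 and 0.36, against a median SD of 0.0644 within a genotype over all genes. The change was 0.12 (95% interval -0.48 to 0.73, limma adjusted p = 0.929), an interval that holds a change of the size measured for Smoc2 in either direction. It turned to -0.12 without Tbx1 null replicate 3 and to -0.0035 without wild type replicate 1. The mean of 10 endothelial markers was 10.25, 10.30 and 10.45 on Tbx1 null replicates 1, 2 and 3 and 10.372, 10.373 and 10.392 on wild type replicates 1, 2 and 3. On the Tbx1 null arrays this mean rose from replicate 1 to replicate 3 as Sparcl1 did, over a smaller span. The means of cardiac muscle, neuronal and epithelial markers rose in that order too, and those of arch mesenchyme, erythroid and crest markers did not. On wild type replicates 1 and 2 the endothelial mean was nearly level. The part of endothelial or other cells in the spread of Sparcl1 was not tested.

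The testicans differed little. Spock2 read 8.70, 8.69 and 8.46 on Tbx1 null replicates 1, 2 and 3 and 8.91, 8.83 and 8.74 on wild type replicates 1, 2 and 3, with no overlap but a gap smaller than the spread within a genotype. Its change was -0.21 (95% interval -0.39 to -0.03, limma adjusted p = 0.441), and -0.13 without Tbx1 null replicate 3. Spock3 read 5.67, 5.77 and 5.87 on Tbx1 null replicates 1, 2 and 3 and 5.66, 5.60 and 5.64 on wild type replicates 1, 2 and 3, a change of 0.14 (95% interval 0.0012 to 0.28, limma adjusted p = 0.52). It was 0.09 without Tbx1 null replicate 3. This probe set was below the first quartile of mean level (6.81), the only member there, and whether it stood above background could not be judged.

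Spock1 gave the smallest change of the 8. Its levels were 7.25, 7.23 and 7.26 on Tbx1 null replicates 1, 2 and 3 and 7.30, 7.28 and 7.14 on wild type replicates 1, 2 and 3, and the arrays overlapped. The change was 0.0067 (95% interval -0.12 to 0.13, limma adjusted p = 0.984). Its sign turned in 5 of 14 alternatives, never beyond -0.05.

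The genes whose arrays followed Smoc1 most closely were found by the root mean square distance, over the 6 arrays, between log2 levels centred on each gene's own mean. They were Lrrn1 (distance 0.158), Heyl (0.182), E330013P04Rik (0.214), Tecrl (0.215) and Rxrg (0.216). As they were found by closeness to Smoc1, their lower Tbx1 null levels and any shared array order come by selection. Lrrn1, a leucine-rich repeat membrane protein, read 8.22, 7.94 and 8.20 on Tbx1 null replicates 1, 2 and 3 and 8.77, 9.42 and 9.43 on wild type replicates 1, 2 and 3. Like Smoc1 it was lowest on Tbx1 null replicate 2 and, within wild type, lowest on replicate 1. Its change was -1.09 (limma adjusted p = 0.0798). Heyl, a Notch target, and Rxrg, a retinoid X receptor, were called lower (changes -0.73 and -0.68, limma adjusted p = 0.0133 and 0.0422). With 1 array left out Heyl passed in 3 of 6 fits (adjusted p from 0.0146 to 0.104) and Rxrg in 0 of 6 (0.0796 to 0.166). Smoc2 lay 0.358 from Smoc1. Its genotype difference was smaller. The lowest arrays of each genotype for Smoc1, Tbx1 null replicate 2 and wild type replicate 1, were the highest for Smoc2. The Tbx1 null levels of Smoc2 spanned only 0.034, below the median SD of 0.0644 within a genotype, so their order cannot be read.

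**Figure D3:**
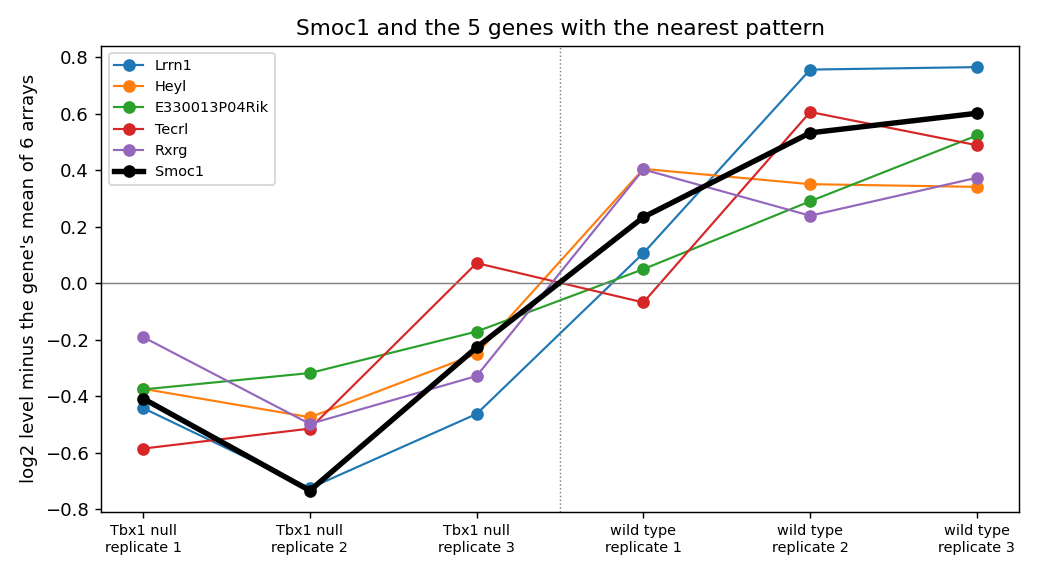
Log2 level on each array minus the gene's mean of 6 arrays, for Smoc1 (thick black line) and the 5 genes with the smallest root mean square distance to it; Tbx1 null arrays are left of the dotted line and wild-type arrays right of it, and lines only join the points of a gene. Smoc1 runs from -0.73 on Tbx1 null replicate 2 to 0.60 on wild type replicate 3, and Lrrn1 lies beside it at -0.72 on Tbx1 null replicate 2. The 5 genes share the pattern of Smoc1 by selection.

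Because Smoc1 and Fstl1 bear on BMP signalling, other secreted regulators of BMP ligands were read beside them. Of 17 measured, 0 passed an adjusted p of 0.05 (limma), beside 0.16% of all genes. At unadjusted p below 0.05, 3 had a higher and 3 a lower level, where 5.5% and 3.94% of all genes did, and the median change was -0.03. The ones of smallest p were Chrdl1, Grem1 and Bmp1. Chrdl1, a chordin-like BMP antagonist, read 8.41, 8.42 and 8.61 on Tbx1 null replicates 1, 2 and 3 and 9.11, 8.94 and 8.96 on wild type replicates 1, 2 and 3 (change -0.52, limma adjusted p = 0.0574). Grem1, another secreted antagonist, read 8.004, 7.933 and 7.894 on Tbx1 null replicates 1, 2 and 3 and 8.653, 8.563 and 8.252 on wild type replicates 1, 2 and 3 (change -0.55, limma adjusted p = 0.12). Chrdl1 and Grem1 were the 2 of the 17 that lay lower with no overlap between genotypes, where 7.06% of all genes did. Another 3 of the 17, Bmp1 among them, lay higher with no overlap, where 8.36% of all genes did. Bmp1, a protease that cleaves chordin, had a change of 0.18.

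Transcripts that BMP-Smad signalling is known to raise were read as well. All 9 measured had Tbx1 null arrays above the wild-type arrays with no overlap, where 8.36% of all genes did, and their median change was 0.28. Arch mesenchyme and cardiac muscle marker means were also higher in Tbx1 null with no overlap, as given in full with the other markers. Msx2, a homeobox gene of the distal arch, was the only one past the threshold: it rose to 12.21, 12.17 and 12.18 on Tbx1 null replicates 1, 2 and 3, against 11.73, 11.86 and 11.81 on wild type replicates 1, 2 and 3 (change 0.39, limma adjusted p = 0.0422). It did not pass with any 1 of the 6 arrays left out (adjusted p from 0.0865 to 0.205). The inhibitory Smad7 and the pseudoreceptor Bambi had changes of 0.35 and 0.42 (limma adjusted p = 0.0845 and 0.113).

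**Figure D4:**
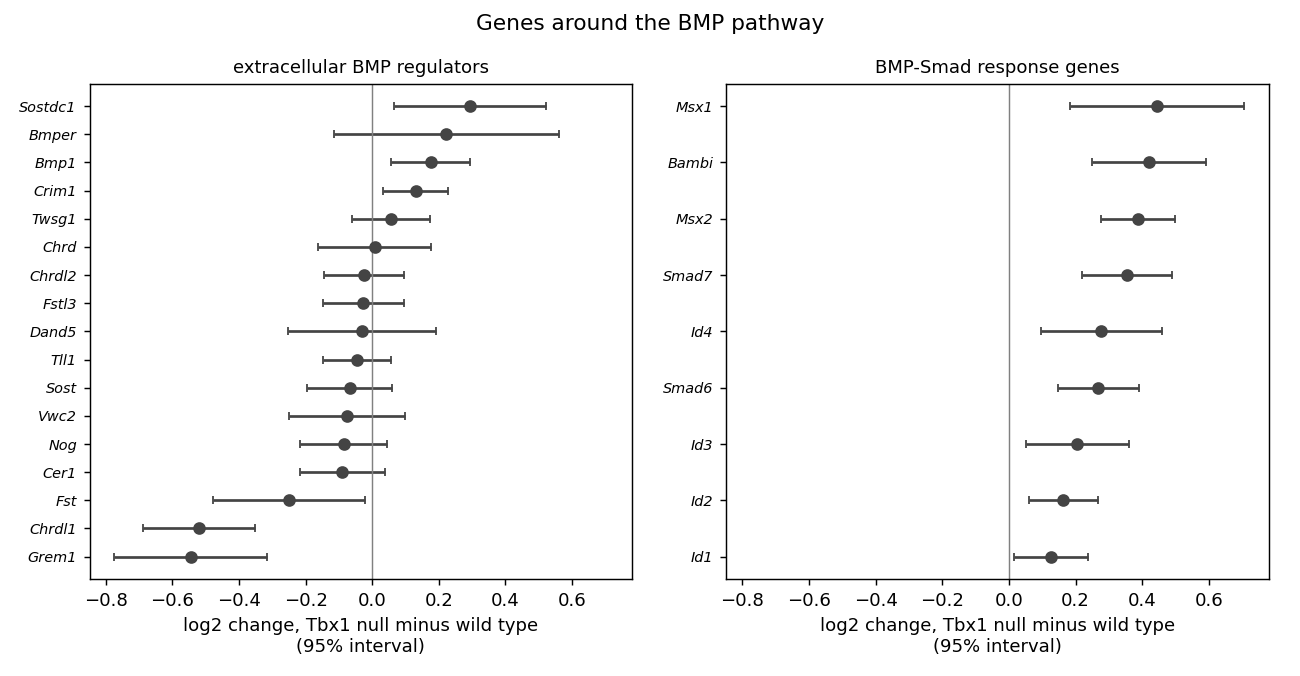
Log2 change, Tbx1 null minus wild type, with 95% intervals, of 17 secreted regulators of BMP ligands (left) and 9 BMP-Smad response genes (right). Grem1 (-0.55) and Chrdl1 (-0.52) stand apart at the low end of the left panel, and all 9 points of the right panel lie above 0.

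Other matricellular genes had no call among 22 measured. At unadjusted p below 0.05 (limma), 2 had a higher and 5 a lower level, and the median change was -0.04. For this list and those that follow, the shares of all genes are the same: 0.16% called, 5.5% higher and 3.94% lower. The connective tissue growth factor Ccn2 was at 10.40 ± 0.12 in Tbx1 null and 10.71 ± 0.05 in wild type (SD, n = 3 each), a change of -0.31 (limma adjusted p = 0.177). Its relative Ccn1 had a change of -0.27 and the thrombospondin Thbs1 of 0.14. Fbln5, an elastic-fibre protein, passed without wild type replicate 1 (change -0.62 there, limma adjusted p = 0.043) and in none of the other fits made for the list, which left out another array, repeated the quantile normalisation or centred the arrays. It is named after its values were seen.

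Other genes with a follistatin-like or Kazal-type domain gave 0 calls among 11, while 3 had a higher and 1 a lower level at unadjusted p below 0.05 (limma; median change 0.07). Fst and Fstl3 stand on this list and among the BMP regulators. Igfbp7, an insulin-like growth factor binding protein, had a change of 0.18, Wfikkn1, a secreted binder of growth differentiation factors, of 0.42, and Fstl4 of 0.13. Of 27 basement-membrane and collagen genes, the matrix that SPARC and SMOC proteins bind, 0 passed, while 3 had a higher and 3 a lower level at unadjusted p below 0.05 (limma; median change 0.0047). Vtn, the adhesion protein vitronectin, was at 7.010 ± 0.026 in Tbx1 null and 7.272 ± 0.030 in wild type (SD, n = 3 each; change -0.26, limma adjusted p = 0.0798). The laminin chain Lamb2 and the collagen Col18a1 had changes of 0.23 and 0.14. Of 14 receptors and proteases linked to the family 0 passed, while 3 had a higher and 1 a lower level at unadjusted p below 0.05 (limma; median change 0.02); the BMP receptors Bmpr2 and Acvr1 had changes of 0.19 and 0.12 and the integrin Itgb1 of -0.16.

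Marker genes of other cell types moved with genotype beside these values. The mean of 6 markers of migratory neural crest and glia was 9.52 to 9.64 on Tbx1 null arrays and 9.69 to 10.16 on wild-type arrays. Of these 6, Ngfr was called lower (change -0.70, limma adjusted p = 0.0142; past the threshold in 2 of 6 fits with an array left out, adjusted p from 0.0344 to 0.133) and Sox10 had a change of -0.85 (adjusted p = 0.435), while Foxd3, Ets1, Sox9 and Erbb3 had changes from -0.15 to 0.0054. The 9 primitive erythroid markers averaged 10.02 to 10.05 in Tbx1 null and 10.28 to 10.36 in wild type. None of the 9 passed an adjusted p of 0.05, and all 9 lay lower with no overlap, as 7.06% of all genes did. The 10 cardiac muscle markers averaged 8.57 to 9.14 in Tbx1 null and 8.21 to 8.47 in wild type, with 0 of 10 called and 8 of 10 higher at unadjusted p below 0.05 (limma), beside 5.5% of all genes. The mean of the 10 arch mesenchyme markers, given above, was higher in Tbx1 null with no overlap between genotypes. Singly, 4 of the 10 lay higher with no overlap, beside 8.36% of all genes, and 2 had a change below 0. None was called, and 4 were higher at unadjusted p below 0.05 (limma). Neuronal markers (7.14 to 7.24 in Tbx1 null, 7.19 to 7.38 in wild type) and epithelial markers (11.32 to 11.47 in Tbx1 null, 11.17 to 11.36 in wild type) overlapped. The part of these cells in the changes of Smoc1, Smoc2, Spock2, Spock3 and the BMP-Smad response genes was not tested.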

How the data were processed

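Per the submitters' processing notes, the deposited log2 values were made by the authors with RMA in Affymetrix Expression Console 1.1; their range showed the log2 scale. RMA equalises the arrays' distributions, so a shift shared by most genes is not visible in full. The small offset of the array medians given above remained in the deposited values. Library files, filters and genome build are not stated there. No read depth exists for arrays, and their number limits the precision (median SE of a change 0.0579).

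Of 35556 probe sets, 21789 had 1 symbol, and the probe set of highest mean stood for each of 19938 genes. No pair of arrays held identical values. The test was limma's (version 3.58.1, R 4.3.3; lmFit and eBayes, two-sided, no covariate, 6 arrays) and p-values adjusted by Benjamini-Hochberg over all genes; the fit was tested on simulated data. Members and related lists were chosen with earlier results of these data known. Named by rule were the members, Tbx1, called members of each related list filled up to 3 by smallest p, and the 5 genes nearest to Smoc1; Fbln5, the crest markers and the genes nearest to Smoc2 and Sparcl1 were named after their values were seen. List counts were recomputed with each array left out, quantile normalisation again and centring. Of the related lists' genes, those with no single-symbol probe set were not analysed here. Alternatives were a replicate block, each array left out, quantile normalisation again, median centring, filters on dim genes, a trended robust variance model, array weights, averaged probe sets, and every probe set tested.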

Additional observations from a re-analysis of the deposited data

How the results depend on the processing

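The sign of the change held for Smoc1, Smoc2, Sparc, Spock2, Spock3 and Fstl1 under every alternative that could be fitted to them. For Smoc1, Smoc2, Spock2 and Spock3, whose arrays did not overlap, leaving 1 array out could not turn it. A replicate block, level filters, a trended robust variance model, averaged probe sets and testing every probe set leave a member's change unaltered. Such settings could not turn a sign. Smoc2 and Spock1 lie outside the filter at the median level and Spock3 outside both level filters. Smoc1 passed the threshold in 3 of 15 alternatives: array centring (change -0.94), trended robust variance (-0.91) and array weights (-1.03). Smoc2 passed in 3 of 14: quantile normalisation again (-0.38), centring (-0.36) and array weights (-0.35). The count of members called was then 1, 2, 1 and 2 with quantile normalisation again, centring, trended robust variance and array weights, against 0 as reported; these settings called 34, 46, 96 and 334 of all 19938 genes. The cause was not tested.

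Leaving out Tbx1 null replicate 3 turned Sparcl1 to -0.12, and leaving out wild type replicate 1 turned it to -0.0035; with 1 array left out its change spanned -0.12 to 0.38. Spock1 turned to -0.0012 without Tbx1 null replicate 3, -0.045 without wild type replicate 3 (with 1 array left out it spanned -0.045 to 0.037), -0.0084 with quantile normalisation again, -0.020 with centring and -0.028 with array weights. All genes called numbered 32 as reported (17 higher, 15 lower), and leaving out 1 array gave 3 to 20. Higher and lower calls were 12 and 22 with quantile normalisation again, and 16 and 30 with centring. When every probe set was tested, 4 of 35556 were called. There the unadjusted limma p was 0.000748 for Smoc1 and 0.000306 for Smoc2, against 0.00022 and 0.000137 as reported. The cause of the lower count was not tested. With 1 array left out, calls among the extracellular BMP regulators ran from 0 to 1 (Grem1, without wild type replicate 3), among other matricellular genes from 0 to 1 and among BMP-Smad response genes it was 0 in each fit, against 1 with all arrays; centring called 1 extracellular BMP regulator, Chrdl1. The median change of all genes was -0.02 with quantile normalisation again and -0.03 with centring.

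Replicate numbers are shared by the genotypes, but the labels do not say that they pair arrays. The deviations of same-numbered arrays correlated at -0.0453, 0.26 and 0.149, and those of differently numbered arrays at -0.366 to 0.25. For replicates 2 and 3 the same-numbered value was the highest of either array. With 3 arrays per genotype these values cannot decide whether arrays were paired, so the replicate block was fitted as an alternative. With the replicate block 6 genes were called and 0 members.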

Other observations

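The genes nearest to Sparcl1 over the 6 arrays, looked up after its values were seen, were Mir130a, Trim68, Ttc30b, D17H6S56E-5 and Penk, at root mean square distances from 0.0743 to 0.199. Mir130a read 6.29, 6.70 and 7.14 on Tbx1 null replicates 1, 2 and 3 and 6.20, 6.30 and 6.93 on wild type replicates 1, 2 and 3. Sparcl1 and these 5 genes were all highest on replicate 3 of both genotypes, and none of the 5 was called (limma adjusted p from 0.651 to 1). As the 5 were found by closeness to Sparcl1, they share its pattern by selection. The Y-linked mean did not share this pattern, being lowest on Tbx1 null replicate 3 (5.73) and highest on wild type replicate 3 (9.85).

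The genes nearest to Smoc2, looked up in the same way, were Nrgn (neurogranin), Rgcc, Cited4, Vtn and Mc5r, at distances from 0.0234 to 0.0508. Nrgn read 8.65, 8.62 and 8.63 on Tbx1 null replicates 1, 2 and 3 and 9.02, 8.96 and 8.86 on wild type replicates 1, 2 and 3, with the highest wild-type level on replicate 1, as for Smoc2. Their changes lay between -0.32 and -0.26, and none of the 5 was called (limma adjusted p from 0.0798 to 0.228). Vitronectin, the basement-membrane and collagen list's gene of smallest p, was one of these. Both readings use the same array values, and genes found by closeness to Smoc2 have changes near its own by selection.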
